A study of Mus musculus with 10 samples.

Results

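The genes described here encode 10 factors that hold RNA polymerase II in place just after initiation or carry it through the gene body: Supt4a and Supt5 (the DSIF heterodimer), Nelfa, Nelfb, Nelfcd and Nelfe (the NELF complex), Supt6 (the histone chaperone SPT6), Supt16 and Ssrp1 (the FACT heterodimer) and Tcea1 (the elongation factor TFIIS). They were chosen by name, not by any measured value, though with earlier results of these data known. All 10 were found among the 55487 genes of the tables. DSIF and NELF bind the polymerase shortly downstream of the start site and keep it paused. The kinase P-TEFb then phosphorylates both, NELF leaves, and DSIF stays with the moving enzyme. SPT6 and FACT take apart and restore nucleosomes around the polymerase, and TFIIS stimulates cleavage of the nascent transcript when the enzyme has backtracked.

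The values come from RNA-seq of E14, a line of mouse embryonic stem cells, sequenced as 3 replicates for which the labels name no perturbation. Cells grew in medium with 15% FBS, LIF, a GSK inhibitor at 3 µM and a MEK1/2 inhibitor at 1 µM, and RNA depleted of ribosomal RNA was made into directional libraries. The labels do not say whether the replicates were separate cultures, so the spread between them may be technical. The series also holds 7 samples of R-loop maps (MapR, BisMapR and their controls), which were not analysed here, so no condition is compared with another. Replicates 1, 2 and 3 held 11420425, 6467405 and 5787357 estimated counts. All 7 embryonic stem cell markers had a mean TPM (the deposited relative abundance, scaled by transcript length and library) of at least 1, with a sum of 451.6 to 622.4 TPM per library. Of 7 fibroblast markers, which feeder cells would bring, 4 had 0 counts in every replicate, among them Col3a1 and Dcn, and 1 (Thy1) reached 1 TPM on average. Together the 7 summed to 1.24 to 3.37 TPM. Of 8 markers of differentiated lineages, Nes alone reached a mean TPM of 1, and the sum of the 8 was 2.10 to 3.32 TPM.

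How well reads can be given to a gene depends on its sequence, and Supt4a and Tcea1 each have a nearly identical copy elsewhere in the genome. The mouse genome carries Supt4b, a processed pseudogene on chromosome 10 (31413815 to 31414165, GRCm38), whose 351 nt differ from the 354 nt coding sequence of Supt4a at 3 bases. Bases 1 to 300 of the coding sequence, read from the GENCODE vM21 transcript, are printed with those 3 bases in capitals, since reads that cover none of them fit both genes.
Supt4a coding sequence: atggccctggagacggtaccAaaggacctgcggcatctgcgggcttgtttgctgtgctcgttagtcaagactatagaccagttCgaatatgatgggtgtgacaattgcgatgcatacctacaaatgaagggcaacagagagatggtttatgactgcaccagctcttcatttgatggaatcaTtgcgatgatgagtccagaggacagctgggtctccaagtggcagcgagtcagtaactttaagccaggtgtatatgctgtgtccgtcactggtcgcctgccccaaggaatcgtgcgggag
The differing bases lie at positions 21, 84 and 182 from the start codon, and no base after the last of them separates the copies within the 351 aligned nt. The estimated counts of Supt4b were 0, 0 and 1.54 in replicates 1, 2 and 3, against 266, 140 and 165.5 for Supt4a. Supt4a and Tcea1 were the 2 members with estimated counts that were not whole numbers, that is, with reads divided among genes. Tcea1 shares 904 nt at 99.3% identity with the processed pseudogene Tcea1-ps1 on chromosome 15, which had 12.4, 13.2 and 21.7 counts. It also shares 202 identical nt with Gm37988, a gene annotated as protein-coding that overlaps it on the same strand and had 170.9, 103.8 and 151.4 counts. The values of both members are uncertain to that extent.

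Overlaps on the opposite strand touch 3 other members, and the strand setting of the counting is not given in the sources used here. Supt16 shares 986 nt of its end with Rpgrip1, which had 65, 36 and 29 counts. Supt6 shares 242 nt of its start with Sdf2, at 126, 81 and 58 counts, and Supt5 shares 375 nt with the antisense gene Gm44709, at 0 counts in every replicate. In the same orientation, Supt5 also shares 150 nt at 95.3% identity with Lix1 on chromosome 17, which had 27.6, 15.8 and 9 counts. No other gene matched Ssrp1 or any of the 4 NELF genes at 90% identity over at least 100 nt. At that setting stretches of Supt5 and Tcea1 matched 1543 and 1820 genes. What these stretches are was not examined.

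RefSeq start sites (GRCm38.p6) were on hand for 7 of the 10 genes, with 8 promoters of 300 bases each (250 before and 50 after the start), Ssrp1 having 2. Nelfcd, Nelfe and Tcea1 had no entry. Letters bound by 6 kinds of promoter factor were searched on both strands after the sequences had been seen: AAGATGG for YY1, CCGGAAG for ETS factors, GGGCGG for Sp factors, the NRF1 motif, CCAAT, and TATAAA for the TATA box. The YY1 letters stood in 4 of the 8 promoters, those of Nelfa, Supt4a, Supt5 and Supt6. Over all 32851 promoters the share was 6.34%, and over those of protein-coding genes with a mean TPM of at least 1 it was 7.78%. The ETS letters stood in Supt4a and, at 2 places, in Supt16, against 8.86% and 20.1% of promoters. The Sp letters stood in 6 of the 8 promoters, against 35.7% and 65.4%. The TATA letters were found in Nelfb alone, at -229 from the start, and the NRF1 and CCAAT letters in none of the 8. No match of the YY1 letters overlapped one of the ETS letters. The promoters of both DSIF genes, 1 NELF gene and 1 FACT gene are printed 5′ to 3′ on the gene's strand as examples of those with the YY1 or ETS letters, which are in capitals. Supt6, with the YY1 letters near the far end of the window, is not printed.
Supt4a promoter, chr11:87737301-87737600, plus strand: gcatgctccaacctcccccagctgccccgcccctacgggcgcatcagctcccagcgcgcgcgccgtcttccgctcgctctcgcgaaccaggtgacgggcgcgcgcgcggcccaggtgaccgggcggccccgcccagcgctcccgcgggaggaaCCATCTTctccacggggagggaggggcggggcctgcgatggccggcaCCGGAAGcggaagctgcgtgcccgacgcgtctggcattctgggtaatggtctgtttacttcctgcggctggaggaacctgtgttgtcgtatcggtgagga
Supt5 promoter, chr7:28338670-28338969, minus strand: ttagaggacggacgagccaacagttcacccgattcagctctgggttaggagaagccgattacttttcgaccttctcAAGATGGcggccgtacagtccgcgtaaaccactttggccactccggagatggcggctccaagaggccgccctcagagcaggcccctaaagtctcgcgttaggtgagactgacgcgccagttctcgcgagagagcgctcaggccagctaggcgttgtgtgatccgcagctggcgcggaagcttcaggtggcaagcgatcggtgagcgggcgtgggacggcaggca
Nelfa promoter, chr5:33936222-33936521, minus strand: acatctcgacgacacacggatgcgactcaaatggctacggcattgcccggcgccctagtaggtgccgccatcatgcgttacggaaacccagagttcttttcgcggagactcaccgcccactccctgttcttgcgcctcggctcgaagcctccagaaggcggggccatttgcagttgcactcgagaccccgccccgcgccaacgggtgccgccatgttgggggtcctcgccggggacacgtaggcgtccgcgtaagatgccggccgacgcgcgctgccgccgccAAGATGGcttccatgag
Supt16 promoter, chr14:52197190-52197489, minus strand: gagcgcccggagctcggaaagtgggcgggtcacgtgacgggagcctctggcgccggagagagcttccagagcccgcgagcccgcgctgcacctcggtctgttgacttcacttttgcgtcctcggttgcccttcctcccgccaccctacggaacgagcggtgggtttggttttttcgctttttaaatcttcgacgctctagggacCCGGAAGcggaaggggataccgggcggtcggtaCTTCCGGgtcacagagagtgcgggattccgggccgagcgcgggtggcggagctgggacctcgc
Positions here are counted from the RefSeq start. In Supt16 both ETS matches lay within the 50 bases before it, at -46 and -13. In Supt4a the ETS match began at -50. The GENCODE bounds used for the other results start Supt16 further upstream, at 52197416, so its ETS matches fall inside the GENCODE gene. Counted in the same way, the YY1 matches showed no common place. They lay at -97 in Supt4a, -174 in Supt5 and -239 in Supt6 but 33 bases after the start in Nelfa. GENCODE also starts Supt6, Nelfa and Supt5 further upstream, at 78245987, 33936413 and 28338746. The Supt6 match therefore falls inside the GENCODE gene. The 8 promoters had 48.3% to 71.0% G and C and 15 to 37 CpG dinucleotides, with a median of 29.5 CpGs. The median was 7 over all promoters and 21 over those of expressed protein-coding genes. These matches are descriptions of letters, not of binding.

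**Figure D1:**
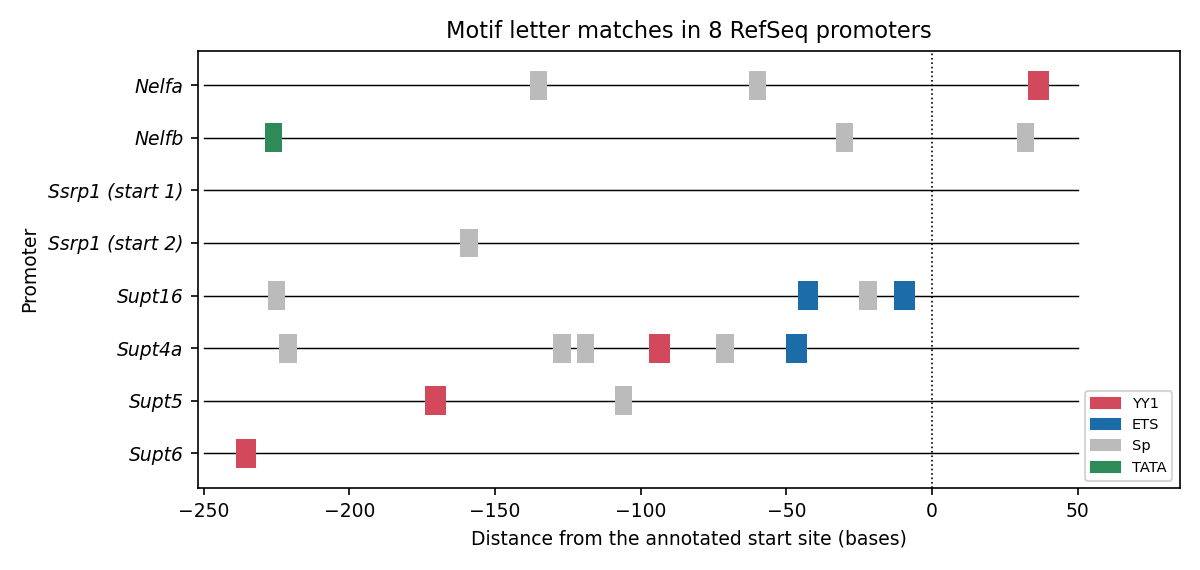
Positions of matches to the YY1, ETS, Sp and TATA letters in the 8 RefSeq promoters of 7 genes, in bases from the RefSeq start site (dotted line). YY1 matches appear in 4 genes at differing distances, and the 3 ETS matches lie within 50 bases before the RefSeq start. The GENCODE start can differ.

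All 10 genes were expressed, and their levels spanned 13.8-fold. Each had a mean TPM of at least 1, as did 19.8% of all genes and 44.1% of protein-coding genes. Each also had at least 1 TPM in every replicate, as did 40.7% of protein-coding genes. The order ran from Ssrp1 and Supt16, the FACT subunits, through Tcea1, Supt5 and Supt4a to the 4 NELF genes and Supt6. In level they lay between percentile 43.0 (Supt6) and percentile 96.3 (Ssrp1) of the 9683 protein-coding genes that reached 1 TPM on average. Those genes had a median of 5.73 mean TPM, and the 10 had a median of 11.9. Genes of effective length under 100 nt held 60.3%, 65.8% and 63.9% of the TPM in replicates 1, 2 and 3. Leaving them out raised every TPM by 2.52, 2.93 and 2.77 times, with no change of order within a library.

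**Figure D2:**
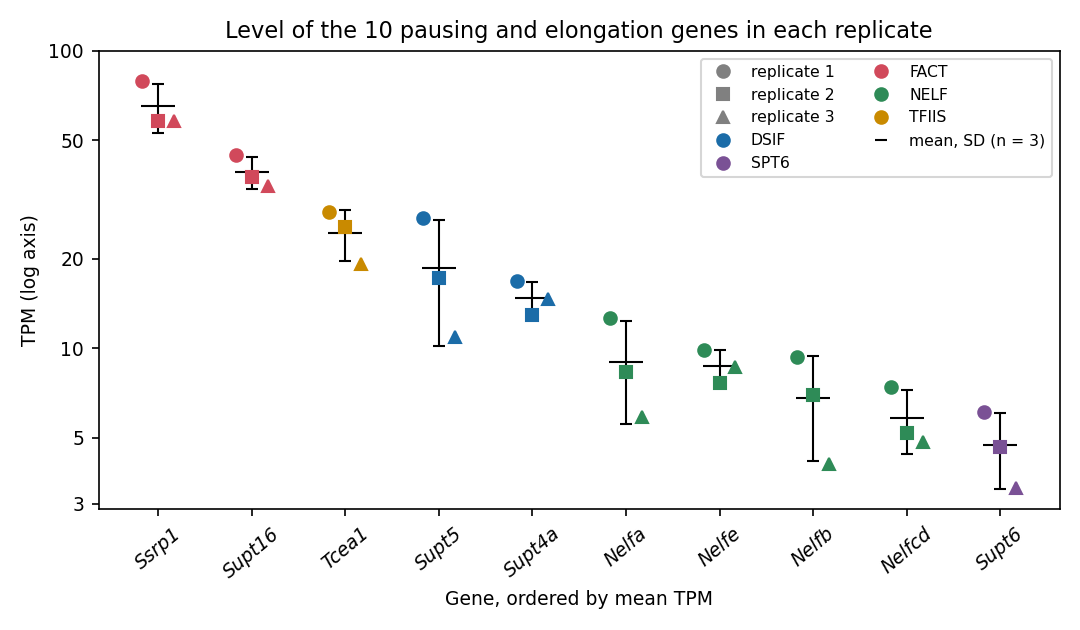
TPM of each gene (log axis) in replicates 1, 2 and 3, with the mean and SD (n = 3), colored by complex. Ssrp1, Supt16 and Tcea1 hold the 3 highest places in every replicate and Supt6 the lowest, while the NELF genes and the DSIF pair change places.

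By mean TPM, the transcripts of the FACT subunits were the 2 highest of the 10. Ssrp1 (ENSMUSG00000027067, chromosome 2, 85037234 to 85047109), the subunit with the DNA-binding HMG box, had 79.3, 58.0 and 57.9 TPM in replicates 1, 2 and 3, a mean of 65.0 ± 12.3 (SD, n = 3). Supt16 (ENSMUSG00000035726, chromosome 14, 52160414 to 52197416), its larger partner, had 44.6, 37.6 and 35.1 TPM, a mean of 39.1 ± 4.91 (SD, n = 3). The lowest Ssrp1 value lay above the highest Supt16 value. Within a library Ssrp1 exceeded Supt16 by 1.65-fold, since the log2 TPM ratio of Supt16 to Ssrp1 was -0.83, -0.63 and -0.72, with a mean of -0.73 ± 0.10 (SD, n = 3; exact sign-flip p = 0.25, the smallest possible with 3 replicates). By counts, which grow with transcript length, the order was the reverse: Supt16 had 493.6 ± 24.3 CPM (counts scaled to each library's total; SD, n = 3) and Ssrp1 302.4 ± 13.6 CPM (SD, n = 3). The FACT subunits were the steadiest pair of the comparison, with the smallest SD of the 5 ratios computed between named genes.

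The most abundant of the 3 TFIIS genes was Tcea1 (ENSMUSG00000033813, chromosome 1, 4857814 to 4897909), which had 28.6, 25.5 and 19.2 TPM, a mean of 24.4 ± 4.81 (SD, n = 3). Its paralog Tcea2 had 3.87, 2.76 and 2.07 TPM, and Tcea3 had 2.81, 2.17 and 1.38 TPM. Tcea1 lay above both in every replicate, by 8.58-fold over Tcea2 (log2 ratio 3.10 ± 0.19, SD, n = 3) and 11.8-fold over Tcea3 (3.57 ± 0.22, SD, n = 3; exact sign-flip p = 0.25 for each, the smallest possible). The paralogs rest on 27 to 75 estimated counts per library, against 879.7 to 1882 for Tcea1. In CPM Tcea2 rose, at 4.38, 4.64 and 5.87, while its TPM fell. With the effective length of each gene averaged over replicates, the log2 ratio to Tcea2 was 3.31, 3.36 and 2.77. Its mean was then 3.15 ± 0.33 (SD, n = 3).

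DSIF joins the small zinc-finger protein SPT4 to the large scaffold SPT5, which contacts the polymerase and the emerging RNA. Supt5 (ENSMUSG00000003435, chromosome 7, 28314891 to 28338746) had 27.5, 17.3 and 10.9 TPM, a mean of 18.6 ± 8.38 (SD, n = 3), the widest spread of the 10 in relative terms. Supt4a (ENSMUSG00000020485, chromosome 11, 87737552 to 87743623) had 16.8, 13 and 14.6 TPM, a mean of 14.8 ± 1.91 (SD, n = 3). Supt5 was the higher in replicates 1 and 2 and Supt4a in replicate 3, so the ranges overlapped. The log2 ratio of Supt4a to Supt5 was -0.71, -0.41 and 0.43, a mean of -0.23 ± 0.59 (SD, n = 3; exact sign-flip p = 0.75), and it changed sign to 0.0062 without replicate 1. The sign was not the same in every replicate, and a sign-flip p cannot fall below 0.25 with 3 replicates. No order of the DSIF subunits can be given.

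The 4 NELF genes lay within 1.54-fold of each other by mean TPM. Nelfa (ENSMUSG00000029111, chromosome 5, 33897916 to 33936413), whose product contacts the polymerase, had 12.6, 8.35 and 5.89 TPM, a mean of 8.96 ± 3.41 (SD, n = 3). Nelfe (ENSMUSG00000024369, chromosome 17, 34850391 to 34856372), the RNA-binding subunit, had 9.90, 7.62 and 8.64 TPM, a mean of 8.72 ± 1.14 (SD, n = 3). Nelfb (ENSMUSG00000013465, chromosome 2, 25199712 to 25211489), which joins NELF-E to the rest of the complex, had 9.33, 6.99 and 4.08 TPM, a mean of 6.80 ± 2.63 (SD, n = 3). Nelfcd (ENSMUSG00000016253, chromosome 2, 174415804 to 174427502), which joins NELF-A to NELF-B, had 7.43, 5.20 and 4.83 TPM, a mean of 5.82 ± 1.41 (SD, n = 3). The lowest Nelfe value lay just above the highest Nelfcd value, and the ranges of the other 5 NELF pairs overlapped. Nelfa was above Nelfcd in every replicate, by 0.77, 0.68 and 0.29 in log2 TPM (mean 0.58 ± 0.26, SD, n = 3; exact sign-flip p = 0.25, the smallest possible). Nelfa was the highest of the 4 in replicates 1 and 2 and Nelfe in replicate 3. Nelfcd was the lowest in replicates 1 and 2 and Nelfb in replicate 3. Against the mean of the 4 in log2 TPM, Nelfcd was lower in 3 of 3 replicates (-0.34 ± 0.10, SD, n = 3). Nelfa and Nelfe were each higher in 3 of 3 (0.24 ± 0.16 and 0.26 ± 0.31, SD, n = 3), and Nelfb lay on both sides (-0.17 ± 0.26, SD, n = 3).

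Supt6 (ENSMUSG00000002052, chromosome 11, 78206746 to 78245987) was the lowest of the 10 in every replicate, at 6.10, 4.64 and 3.40 TPM, a mean of 4.71 ± 1.35 (SD, n = 3). Its transcript is the longest of the 10, and by counts it stood above Supt4a and the 4 NELF genes, at 76.7 ± 11.5 CPM (SD, n = 3). Of the 9 neighbouring pairs in the order of mean TPM, 3 were separated by ranges that did not overlap: Ssrp1 from Supt16, Supt16 from Tcea1, and Supt4a from Nelfa. The other 6 pairs overlapped, and the exact sign-flip test cannot go below 0.25 for any pair of 3 replicates.

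None of the 10 genes varied between replicates beyond genes of like abundance (edgeR goodness-of-fit test), where 1.84% of the 12577 genes tested did. None reached an unadjusted p of 0.05 either, where 6.96% of genes did, and the same held with DESeq2 size factors. The lowest unadjusted p was 0.23, for Supt4a, and the trended coefficient of variation behind the test was 0.150 to 0.176 for these genes. This does not show that their levels were equal in the 3 replicates. In 9 of the 10 genes the spread was smaller in CPM than in TPM, and in Supt4a it was 1.32-fold in CPM and 1.29-fold in TPM. The table as a whole went the same way. Over the 9683 expressed protein-coding genes the median ratio of highest to lowest was 1.26 in CPM and 1.59 in TPM. For the 10 genes these medians were 1.17 and 1.52. The highest CPM exceeded the lowest by 1.04-fold (Nelfcd) to 1.52-fold (Nelfa), and the highest TPM the lowest by 1.27-fold (Supt16) to 2.53-fold (Supt5). All 10 had their highest TPM in replicate 1, as did 86.5% of expressed protein-coding genes. In 8 of the 10 the lowest was in replicate 3, as in 79.4% of those genes.

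Supt5 showed the largest gap between the units. Its counts were 122.4, 116.4 and 106.1 CPM, a 1.15-fold range, while the length by which they were divided rose. Its effective length, the part of the transcript from which a fragment can start, was 1875, 2295 and 2974 nt in replicates 1, 2 and 3. From replicate 1 to replicate 3 its log2 TPM differed by -1.34. Of that, -0.21 was the difference in CPM, effective length differed by 0.67, which enters with the opposite sign, and the scale of the whole library gave -0.47. A ratio of effective lengths over 1.5 between replicates was found in this 1 of the 10 genes and in 5.99% of expressed protein-coding genes. With 1 fixed effective length, an alternative chosen after seeing the data, Supt5 had 21.7, 16.6 and 13.6 TPM, a 1.59-fold range.

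The length given for a gene is the mean of its transcripts' lengths weighted by their estimated abundance. Among 34056 genes with 1 transcript it was within 0.5 nt of the annotated length in 99.8%. Supt5 has 2 transcripts annotated as coding, of 3513 and 3755 nt, and 6 others (retained introns, nonsense-mediated decay and a processed transcript) of 396 nt upwards. Its listed length of 2013 nt in replicate 1 therefore means that at least 48.1% of its TPM there was assigned to transcripts not annotated as coding. The bound was 34.4% in replicate 2 and 13% in replicate 3. Ssrp1 had a bound of 22.9%, 11.7% and 16.1%, Nelfcd of 24.9%, 6.94% and 16.8%, and Supt6 of 21.0%, 10.7% and 25.6%. Nelfa lay between 4.95% and 11.4%, Supt4a between 6.59% and 15.6%, and Supt16 between 0.72% and 2.10%. For Nelfb and Nelfe the listed length sets no such bound, and both transcripts of Tcea1 are coding. The share of each transcript is not in the gene tables, so these are lower bounds on the authors' assignment and not measured isoform levels.

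**Figure D3:**
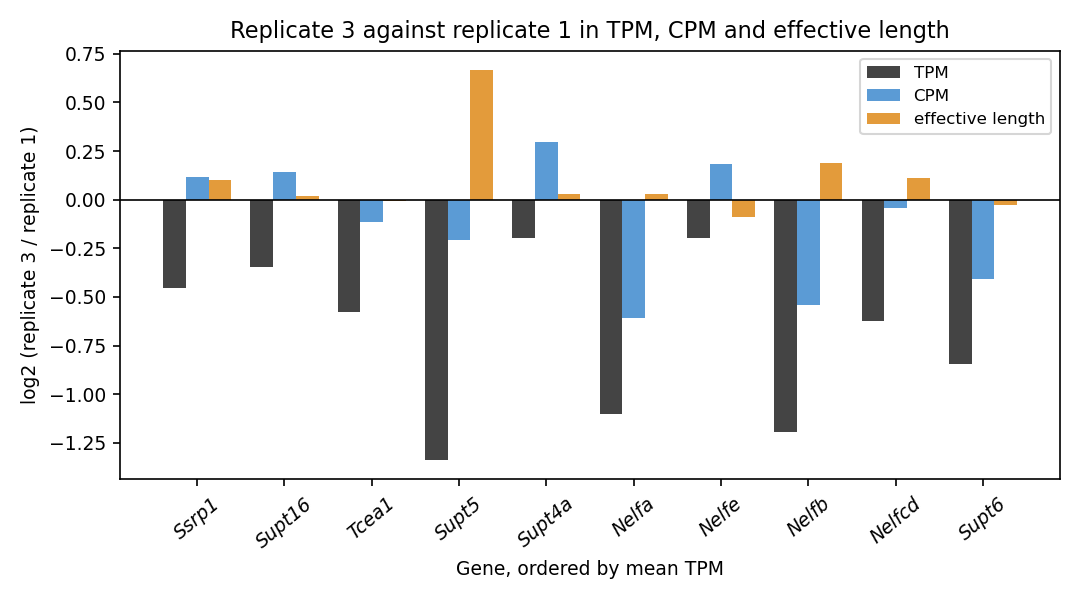
Difference between replicate 3 and replicate 1 (log2) in TPM, CPM and effective length for each gene, ordered by mean TPM. Supt5 has the longest TPM bar at -1.34, beside -0.21 in CPM and 0.67 in effective length, whereas Nelfa at -1.10 differs mostly in CPM, at -0.61.

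The deviation of a replicate from a gene's mean followed transcript length over the whole table, and the 10 genes were set against genes within 1.2-fold of their own length. Deviations are in log2 TMM-scaled CPM. Supt4a, the shortest, was 0.35 above its mean in replicate 3, where the 660 genes of like length had a median of 0.17. Supt6, the longest, was at -0.15 there, beside a median of -0.14. Supt16 stood on the other side of genes of its length, at 0.19 beside -0.10 in replicate 3 and at -0.14 beside 0.09 in replicate 1. Its partner Ssrp1 was at 0.19 in replicate 3 and -0.11 in replicate 1, beside medians of 0.03 and -0.01. Nelfa and Nelfb were at -0.19 and -0.18 in replicate 3, beside -0.02 and 0.01, while Nelfe was at 0.21 beside 0.09. Across the 10 genes Spearman's rho of deviation with length was 0.41, 0.67 and -0.59 in replicates 1, 2 and 3. Over the 8296 genes it was 0.46, 0.22 and -0.47. These are descriptions, since genes of a library share its depth and preparation. The part of length in any single difference was not tested.

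**Figure D4:**
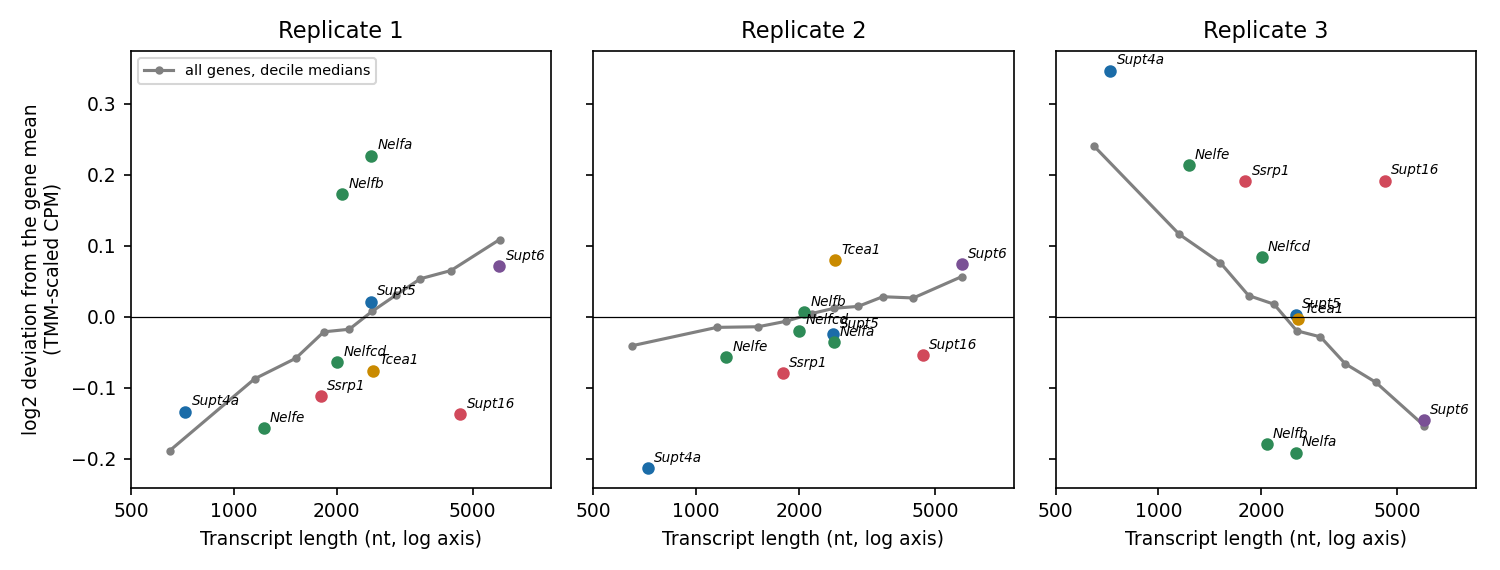
Distance of a gene in 1 replicate from its own mean (log2 TMM-scaled CPM), plotted against mean transcript length (log axis), with medians of all genes by length decile as a grey line. In replicate 3 the line falls from 0.24 to -0.15, Supt6 lies on it, and Supt16 lies above it at 0.19.

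Other genes of the elongation machinery were listed by role. All 6 genes of the PAF1 complex, which travels with the polymerase, had a mean TPM of at least 1, from Leo1 at 3.03 ± 0.86 to Wdr61 at 21.7 ± 3.8 TPM (SD, n = 3), and none varied. All 6 genes for P-TEFb and the proteins of its 7SK store were expressed, from the inhibitor Hexim1 at 1.55 ± 0.17 to the cyclin Ccnt2 at 12.5 ± 2.56 TPM (SD, n = 3), and none varied. The 8 genes of the super elongation complex ran from Ell at 1.82 ± 0.76 to the scaffold Aff4 at 39.9 ± 12.6 TPM (SD, n = 3). None varied. The 14 other elongation factors ran from Tcea3 at 2.12 ± 0.72 to Elob, an elongin subunit, at 119.6 ± 25.0 TPM (SD, n = 3). The 12 polymerase subunits ran from Polr2k at 2.15 ± 0.52 to Polr2g at 29.6 ± 1.54 TPM (SD, n = 3). The medians of mean TPM were 7.45, 8.45, 3.99, 8.23 and 15.3 in the order given, against 11.9 for the 10 pausing and elongation genes.

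Among these genes 2 varied between replicates, each with its lowest value in replicate 3. An unadjusted p under 0.05 was found for 0 of the 6 PAF1 genes, 0 of the 6 P-TEFb and 7SK genes, 1 of the 8 super elongation complex genes, 3 of the 14 other factors and 4 of the 12 polymerase subunits, beside 6.96% of all genes tested. Polr2a, the largest subunit and the enzyme's catalytic core, had 28.3, 20.7 and 4.49 TPM and 420.1, 384.4 and 95.3 TMM-scaled CPM (edgeR goodness-of-fit test, adjusted p = 3.81e-06). Without replicate 3 the adjusted p was 0.999, and over all alternatives of the test it ran from 7.14e-07 to 0.999. Polr2a deviated by -1.38 in replicate 3 in log2 TMM-scaled CPM, against a median of 0.26 over the 12 polymerase subunits. The other subunits with an unadjusted p under 0.05 in the edgeR test deviated upwards there, by 0.39 to 0.54. Their mean transcript lengths were 652 to 908 nt, against 6457 nt for Polr2a. By length decile, the median deviation in replicate 3 was 0.24 for the shortest genes and -0.15 for the longest. The part of length in these differences was not tested. Ccnk, the cyclin of CDK12 and CDK13, had 14.9, 9.51 and 3.74 TPM (edgeR, adjusted p = 0.0191) and lost the call without any 1 of the replicates, with adjusted p from 0.125 to 0.999. The 10 genes deviated in replicate 3 by -0.19 (Nelfa) to 0.35 (Supt4a) on the same log2 scale, without passing the test. Supt5 stood at 0.0031 and Supt6 at -0.15, beside a median of -0.14 for genes of the length of Supt6.

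**Figure D5:**
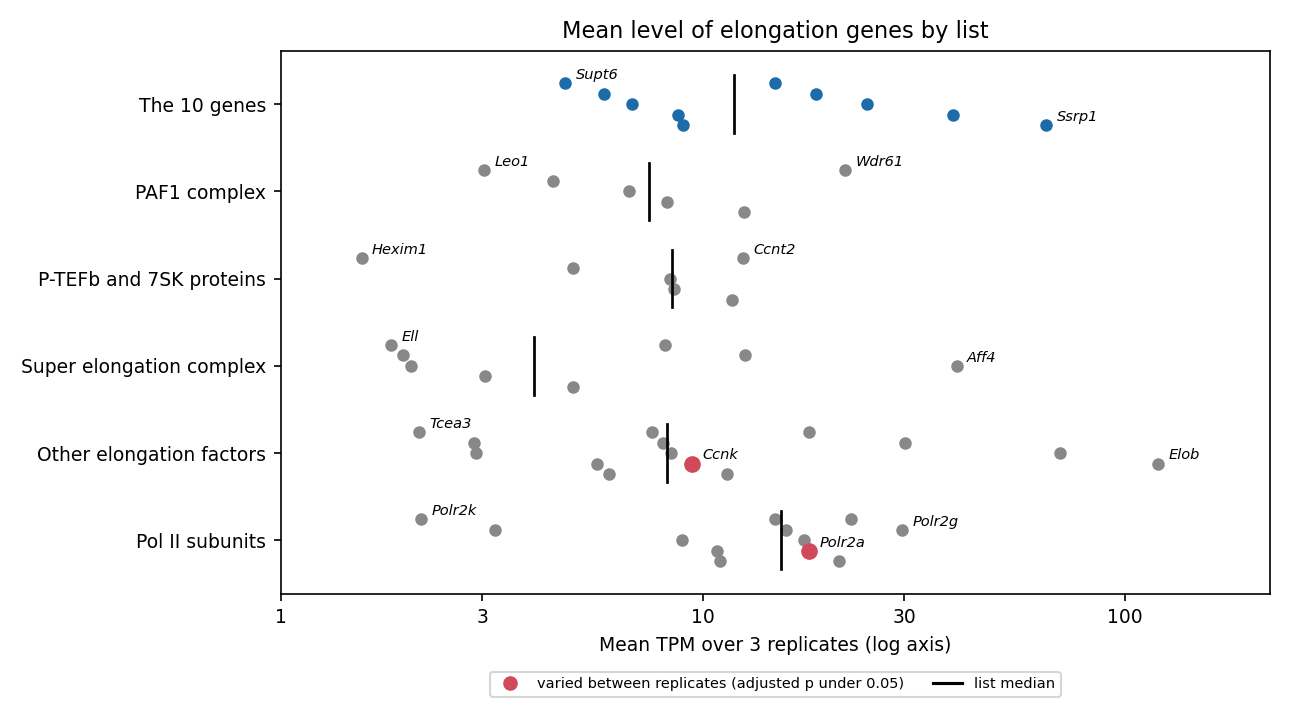
Mean TPM (log axis, 3 replicates) of the 10 genes and of 5 other lists of elongation genes, with list medians as bars and the lowest and highest gene named. The 2 genes that varied between replicates, Polr2a and Ccnk, are in red and none of the 10 is.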

How the data were processed

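RNA-seq of E14 cells gave 3 deposited tables, 1 for each replicate. The other 7 samples, which map R-loops, were not analysed here. The tables have the columns of RSEM's gene output, and RSEM, STAR and build mm10 are named in the submitters' processing notes without versions. The annotation release and the strand setting are not given in the sources used here. Per the file headers, the authors deposited an expected count (an estimated count, not normalized), TPM, FPKM (not used for any result), length and effective length for 55487 genes. Names, positions and transcript types came from GENCODE vM21 (GRCm38), which matched 55227 gene IDs by ID, and each of the 10 genes lists the same transcripts in both sources.

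Library totals were 11420425, 6467405 and 5787357 estimated counts. CPM is a count scaled to that total. Expected counts were rounded for edgeR 4.0.16 (R 4.3.3), in which a gene was said to vary when its deviance exceeded the trended dispersion (goodness-of-fit test, filterByExpr, TMM, intercept only, Benjamini-Hochberg adjusted p under 0.05 over all genes tested). DESeq2 1.42.0 gave size factors for an alternative. Differences between genes were taken within a library as log2 TPM, with an exact two-sided sign-flip permutation test whose smallest p for 3 replicates is 0.25. Intervals are Wilson 95% intervals of the share of counts and cover counting error only. Sequence matches between transcripts used BLAST 2.17.0. Other steps used Python 3.11.15.

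The 10 genes, the lists and the tests were chosen with earlier results of these data known. The genes named are the 10, the highest and lowest of each elongation list, the paralogs Tcea2 and Tcea3, listed genes that varied, near-identical copies and cell type markers. Genes sharing a transcript stretch were those at 95% identity over 150 nt or 90% over 300 nt. A change of the pseudocount, filter, length scaling, normalization and replicates used was tried for each result it could touch.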

Additional observations from a re-analysis of the deposited data

How the results depend on the processing

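The 19 results were recomputed under 103 alternatives, 93 planned and 10 (TPM from 1 fixed effective length per gene) chosen after seeing the data. Of these, 86 kept the value within the spread between replicates or the count within 1.5 times, 16 moved it and 1 changed its sign. The Supt4a to Supt5 ratio, -0.23 in log2 TPM, lay between -0.56 and 0.0062 when any 1 replicate was left out, and the change of sign came without replicate 1. With the effective length of each gene averaged over replicates, the ratio was -0.36, -0.40 and 0.14 in replicates 1, 2 and 3. Its mean was then -0.21 ± 0.30 (SD, n = 3). The cause of the change of sign was not tested. The median level of the 10 genes, 3.63 in log2(TPM + 1), was 6.07 in log2(CPM + 1), which is not scaled by length, and 5.0 with genes of effective length under 100 nt left out of the TPM denominator. That same change raised the mean TPM of all 10 genes and accounts for the other 10 moved values. The Tcea1 to Tcea2 ratio, 3.10, was 3.32 with full length in place of effective length and 2.71 in log2(TPM + 1). The Tcea1 to Tcea3 ratio, 3.57, was 3.03 in log2(TPM + 1), and the range from Ssrp1 to Supt6, 3.81, was 3.54 on that scale. A pseudocount shrinks a difference by construction. None of the 10 genes varied under any of the 6 alternatives of that test, while the number of varying genes over the whole table, 232, was 63, 89 and 93 in the fits on 2 replicates, which hold fewer values per gene, and 289 without a filter. Depth limits the least counted value, 140 estimated counts for Supt4a in replicate 2, to a 95% interval of 18.3 to 25.5 CPM.

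No paired analysis was possible because 1 group alone had tables, so its replicate numbers pair with nothing.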
